A study of Homo sapiens with 4 samples.

Results

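Integrins and the proteins of the focal adhesion plaque were followed in ES-2 cells depleted of the YAP1-MAML2 (YM) fusion. The genes were chosen by name and comprised 26 integrin subunits and 23 plaque proteins, 49 genes in all. Of these, 47 had a row among the 19626 genes of the deposited tables, and ITGAD and ITGAM were not analysed here. RPKM is a count divided by the length of the transcript and the size of the library, and a gene was tested when its RPKM exceeded 1 in 1 library or more. This held for 35 of the 47 genes, among 12157 genes tested in all, and the other 12 are given by their counts or levels. ITGA11 and ITGB8 passed this filter only through the shM2-3 libraries, so counts and medians over the tested genes are given as descriptions.

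ES-2 is an established ovarian clear cell carcinoma line with the endogenous fusion, which joins the TEAD-binding part of YAP1 to the activation domain of MAML2. Cells received pLKO.1 lentivirus with a nontargeting shRNA (shCtl, 2 biological replicates) or with shM2-3, an shRNA against a MAML2 sequence that the fusion transcript shares (2 biological replicates), for 8 hours on each of 2 days, and RNA was taken 96 hours after the first exposure according to the labels. The methods of the study give a shorter time. The comparison rests on 1 cell line and 1 shRNA that can lower native MAML2 as well as the fusion, and p-values measure the spread between these replicates.

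Integrins are receptors built from 1 alpha and 1 beta subunit, and the alpha subunit largely sets which matrix protein the pair binds. Inside the cell, talin, kindlins and tensins join the beta subunit tail to actin, the ILK-PINCH-parvin complex steadies this link, and FAK and SRC phosphorylate docking proteins such as paxillin. YAP1 does not bind DNA by itself and acts through TEAD factors. Adhesion to the matrix is known to influence YAP1, and several adhesion genes are known YAP1/TEAD targets in epithelial and mesenchymal cells.

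The targeted gene MAML2 went from 1436 and 1402 counts in the control libraries to 634 and 553 after depletion, a log2 fold change of -1.40 (standard error 0.0688). YAP1, the other gene of the fusion, was higher by 0.42 on the log2 scale, and gene-level counts do not separate the fusion from either gene. Total counts lay between 20051083 and 23978660 per library. The labelled tissue was only in part visible in the markers. NAPSA, PAX8, WT1, EPCAM, CDH1 and KRT19 were below an RPKM of 1 in every library, whereas KRT7, KRT8, KRT18 and VIM were between 29.1 and 2969. These keratins and VIM were lower in shM2-3, KRT7 and KRT8 past the 2-fold limit (-1.26 and -1.22) and KRT18 and VIM within it (-0.68 and -0.44), and the part of these marker changes in the integrin values was not tested. Of 14 leukocyte markers, 10 were in the table, and their summed RPKM was 59.5 and 58.8 in shCtl and 42.1 and 40.8 in shM2-3, nearly all of it CD68. Of 9 fibroblast markers, 3 were above a mean RPKM of 1 in shCtl and 4 in shM2-3, with sums between 45.9 and 58.0. DCN, LUM, COL3A1 and POSTN were below 0.1 in every library, while PDGFRA, PDGFRB and FAP were called higher in shM2-3 (log2 fold changes of 1.79, 1.23 and 1.07) and THY1 was lower (-0.56). PDGFRB entered the test only through shM2-3 (RPKM 0.482 and 0.662 in shCtl, 1.20 and 1.37 in shM2-3), so its call is a description. In bulk RNA, fewer cells of a type and less RNA per cell cannot be told apart.

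More of the adhesion genes were higher than lower after depletion. With a limit of 0.05 on the adjusted p and of 2 on the fold change, ITGA1, ITGA2, ITGA10, ITGA11, ITGA5, ITGAV, ITGB8 and TES rose, 8 of the 35 tested, and among all genes tested 9.24% were called higher. ITGA6, ITGB2, FERMT1 and TRIP6 fell, 4 of the 35, against 8.93% of all genes. By adjusted p alone, 24 were higher and 7 lower, where 36.3% and 36.4% of all genes were, and 4 did not pass (ITGAE, TLN2, FERMT2 and LIMS1). The median log2 fold change of the 35 genes was 0.64, and that of all genes tested was -0.0037. The 15 integrin subunits tested had a median of 1.00, with 7 called higher and 2 lower, and the 20 plaque genes tested a median of 0.21, with 1 called higher and 2 lower.

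**Figure D1:**
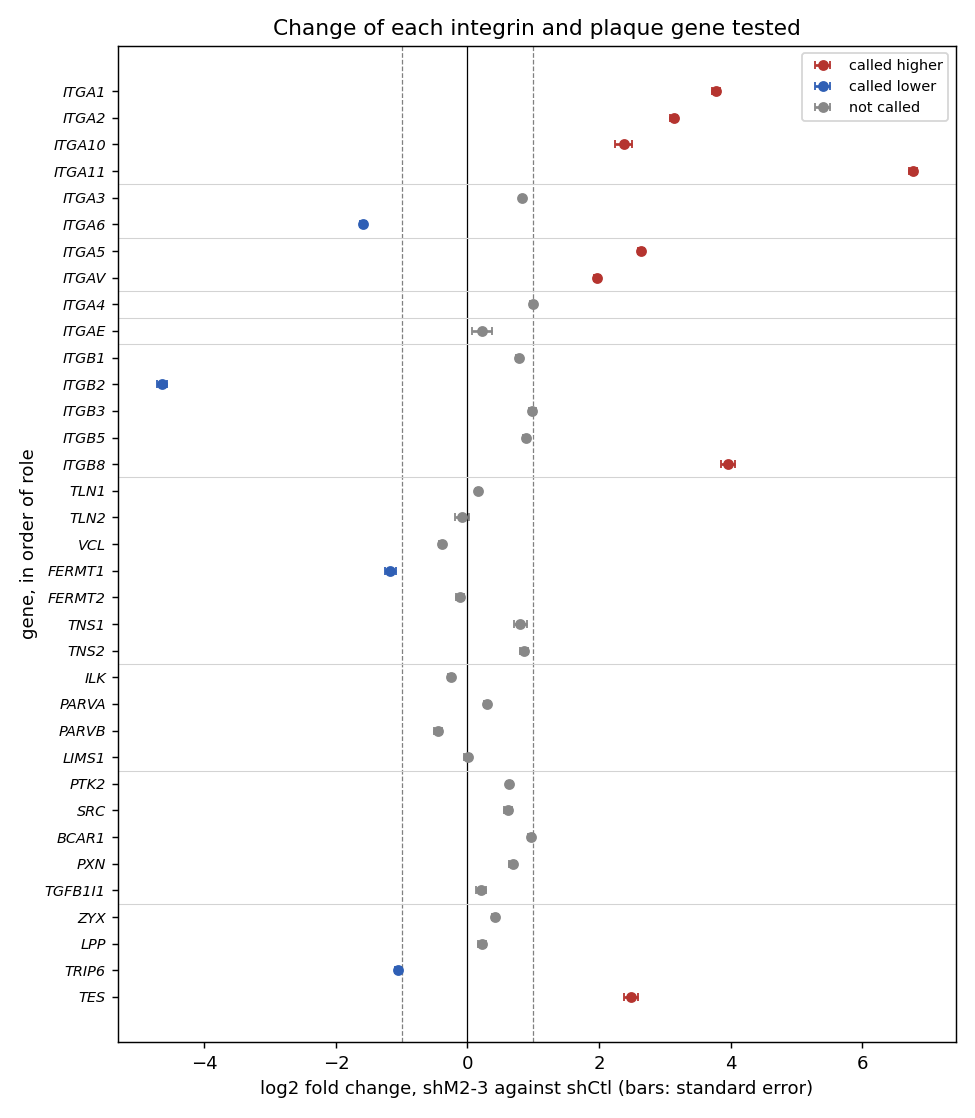
Log2 fold change of each of the 35 integrin and plaque genes tested, shM2-3 against shCtl (horizontal axis), with standard errors as bars and genes in order of role from top to bottom; red marks genes called higher, blue genes called lower and gray the others, and dashed lines mark a 2-fold change. ITGA11 is farthest to the right at 6.77 and ITGB2 farthest to the left at -4.65, and most plaque genes lie between the dashed lines.

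The 4 collagen-binding alpha subunits, all of which pair with ITGB1, were called higher, where 9.24% of all genes tested were. For ITGA11, which entered the test only through shM2-3, the call is a description, and it was also called when no gene was filtered out. ITGA11, a receptor for fibrillar collagen known from fibroblasts (chr15:68296532-68432163), rose from 75 and 84 counts to 10214 and 9035. Its RPKM in shM2-3, 35.0 and 34.2, was near that of ITGA1 and ITGA2, and its fold change ranked 14 from the top of all 12157 genes. ITGA1 (chr5:52787916-52959209) had an RPKM of 3.08 and 2.80 in shCtl and 41.0 and 36.0 in shM2-3. Its log2 fold change was 3.78 (standard error 0.0675, Benjamini-Hochberg adjusted p = 1.99e-14 in the edgeR quasi-likelihood test). ITGA2 (chr5:52989340-53094779), the neighboring gene and the collagen receptor shared by epithelium and platelets, had an RPKM of 3.92 and 3.86 against 33.7 and 31.6, a log2 fold change of 3.13. ITGA10 (chr1:145891208-145910111), which is best known from cartilage, had the lowest level of the class in shM2-3 and rose from 136 and 209 counts to 1029 and 945. On the log2 scale it differed by 2.38 (standard error 0.134), by 2.70 without shCtl replicate 2 and by 2.11 without shCtl replicate 1. For all 4 genes the lower shM2-3 library was above the higher shCtl library by RPKM, as for 38.9% of all genes tested.

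PELO lies within ITGA1 on the same strand and shares exonic bases with it. The counts of PELO were 369 and 334 in the control libraries against 410 and 271, a log2 fold change of -0.20 that did not pass the test, and the overlap covered at most 7.47% of the exonic bases of ITGA1.

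The laminin receptors did not move in 1 direction. ITGA3, the main alpha subunit of these cells, had an RPKM of 225 and 228 in shCtl and 384 and 385 in shM2-3, a log2 fold change of 0.83 that passed the adjusted p but not the fold change limit. ITGA6 (chr2:172427354-172506459), which pairs with ITGB1 or, in hemidesmosomes, with ITGB4, fell from 43.9 and 42.7 to 14.0 and 13.5, a log2 fold change of -1.59 (standard error 0.0441, Benjamini-Hochberg adjusted p = 1.34e-12 in the edgeR quasi-likelihood test). ITGA3 and ITGA6 thus went in opposite directions, with no overlap between groups for either gene. Of all genes tested, 38.9% were likewise apart and higher in shM2-3, and 47.1% apart and lower. ITGA7, known from muscle, stayed below an RPKM of 0.5 in all libraries and was not tested.

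Among the receptors for the RGD peptide motif, both subunits that were tested rose. ITGA5 (chr12:54395261-54419266), the fibronectin receptor subunit, had an RPKM of 30.9 and 33.5 in shCtl and 189.9 and 193 in shM2-3. Its fold change in the edgeR fit was 6.23 (log2 fold change 2.64, standard error 0.0456, Benjamini-Hochberg adjusted p = 1.56e-14 in the edgeR quasi-likelihood test). ITGAV (chr2:186590010-186680901), which pairs with several beta subunits and binds vitronectin and latent TGF-beta, had 16.8 and 15.9 against 62.5 and 60.2. Its fold change in the edgeR fit was 3.93. ITGA8 and ITGA2B, the latter the platelet fibrinogen receptor subunit, had at most 10 counts in any library. Of 5 platelet and megakaryocyte markers, 3 were in the table, with a summed RPKM between 0.928 and 1.87. ITGA4, which binds VCAM1 and fibronectin, had an RPKM of 13.2 and 12.7 in shCtl and 25.1 and 24.3 in shM2-3. Its fold change of 1.9996 in the edgeR fit lay just under the limit of 2 and passed it with DESeq2 and with RLE factors. ITGA4 shares 26.4% of its exonic bases with CERKL on the opposite strand, which had at most 16 counts in any library. The relative of ITGA4, ITGA9, had at most 9 counts in any library.

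**Figure D2:**
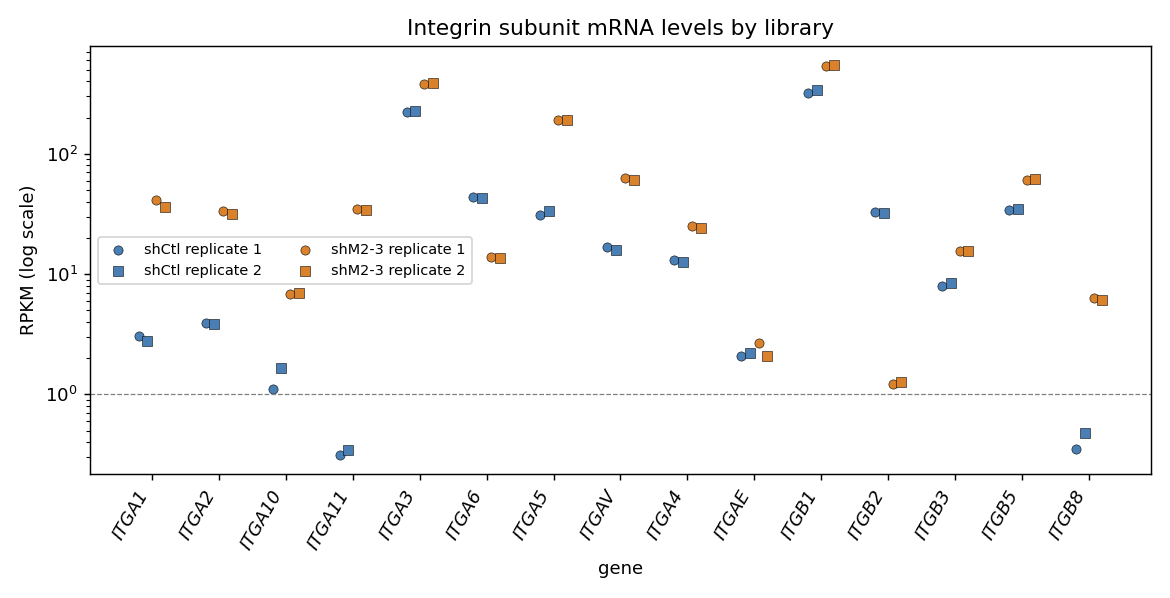
RPKM on a log scale (vertical axis) of the 15 integrin subunits tested (horizontal axis) in each library, shCtl in blue and shM2-3 in orange, with circles for replicate 1 and squares for replicate 2 and a dashed line at an RPKM of 1. The blue and orange points are apart for every gene but ITGAE, and ITGA11 and ITGB8 lie below the dashed line in shCtl only. Of all genes tested, 38.9% had the groups apart with shM2-3 higher and 47.1% with shM2-3 lower.

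The change of single subunits altered the makeup of the alpha subunit mRNA. RPKM is scaled by length, so the levels of different subunits could be added, and the summed alpha subunit RPKM was 343 in shCtl and 791 in shM2-3. Laminin receptors went from 78.9% ± 0.174 of this sum to 50.4% ± 0.435 (SD, n = 2 each). Their own summed RPKM was higher in shM2-3 (398 and 399) than in shCtl (269 and 271), so the smaller share is not a smaller level. RGD receptors went from 14.2% ± 0.226 to 32.0% ± 0.263 (SD, n = 2 each). Collagen receptors went from 2.49% ± 0.0327 to 14.2% ± 0.605 (SD, n = 2 each). By gene, ITGA3 held the first place in both groups with 66.1% and 48.6%, while ITGA6 went from the second place with 12.6% to 1.74%, and ITGA5 from 9.39% to 24.2%. These shares differed between groups by more than the range of the replicates, and with 2 libraries against 2 an exact permutation test cannot give a p below 0.333. Shares of counts that were not divided by length gave the collagen receptors 4.03% and 23.6%.

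**Figure D3:**
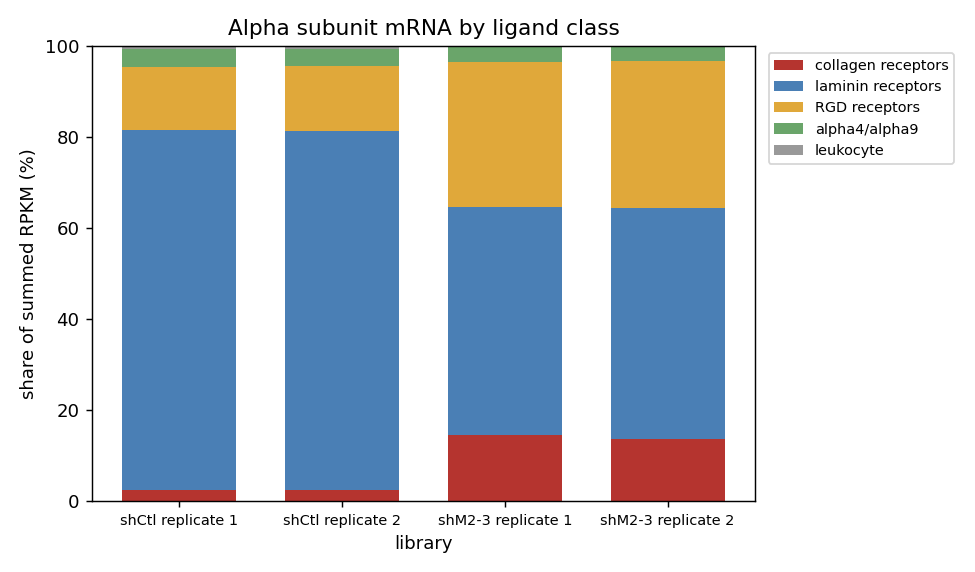
Share of the summed alpha subunit RPKM in percent (vertical axis) held by each ligand class in each of the 4 libraries (horizontal axis), stacked to 100. The laminin receptor share is near 79% in both shCtl libraries and near 50% in both shM2-3 libraries, and the RGD and collagen receptor shares are larger in shM2-3.

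Of the 8 beta subunits, 5 were tested. ITGB1, the partner of the collagen receptors, of ITGA5 and of most laminin receptors, was the most abundant, with an RPKM of 322 and 338 in shCtl and 538 and 544 in shM2-3. Its log2 fold change was 0.78 (standard error 0.0345), smaller than that of any collagen or RGD receptor alpha subunit tested, and it made up 81.3% of the summed beta subunit RPKM in shCtl and 86.5% in shM2-3. The summed beta subunit RPKM was 1.54 times as high in shM2-3, and the summed alpha subunit RPKM 2.31 times.

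The 4 partners of ITGAV that were tested (ITGB1, ITGB3, ITGB5 and ITGB8) were higher at the adjusted p, where 36.3% of all genes tested were. Of these 4 partners, 1 (ITGB8) was called higher, where 9.24% of all genes tested were. ITGB8 (chr7:20330702-20415754), which with ITGAV binds latent TGF-beta, rose from 74 and 102 counts to 1628 and 1407, a log2 fold change of 3.96 (standard error 0.111). Since ITGB8 entered the test only through shM2-3, its call is given as a description, and it was also called when no gene was filtered out. Even so, its RPKM of 6.19 ± 0.203 (SD, n = 2) in shM2-3 was below that of ITGB3 at 15.5 ± 0.0179 and of ITGB5 at 60.9 ± 0.718. ITGB3 and ITGB5 had log2 fold changes of 0.99 and 0.88, and ITGB3 shares 33.2% of its exonic bases with an annotated gene on the same strand, so its counts are uncertain. ITGB6, the epithelial partner of ITGAV, had between 3 and 21 counts per library.

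ITGB2 (chr21:44885953-44931989), the beta subunit of leukocyte integrins, went the other way. Its counts fell from 2310 and 2321 to 105 and 99, so that 3.81% of its RPKM remained. ITGB2 was the third beta subunit by level in shCtl, with 8.02% of the sum, and held 0.199% in shM2-3. Of the alpha subunits it pairs with in leukocytes, ITGAD and ITGAM were not analysed here. The others were hardly seen: ITGAL had at most 1 count in any library, and ITGAX had 15 and 30 counts against 4 and 17. The leukocyte marker PTPRC had at most 3 counts in any library and CD3E at most 1, but other markers of the list differed. Of those tested, CD68 was lower within the 2-fold limit (log2 fold change -0.51), and LYZ did not pass (0.94). CORO1A was called lower (-1.46, standard error 0.50), but it exceeded the RPKM limit only in shCtl replicate 2, at 1.02. Its RPKM was 0.66 in shCtl replicate 1 and 0.40 and 0.18 after depletion, so its call is a description. Of those not tested, CD14 and FCER1G were higher after depletion by RPKM without overlap, and CD3D and LCP1 were lower. Of all genes tested, 38.9% and 47.1% were apart in these directions. The counts were few: CD3D had 3 and 1 in shCtl against 0 and 1, and FCER1G 2 and 0 against 6 and 4. LCP1 had 21 and 22 counts against 25 and 21, so it was lower by RPKM only. The mean RPKM of CD14 was 0.878 after depletion against 0.0898 in the controls. ITGB2-AS1, on the opposite strand, went from 158 and 155 counts to 9 and 4, a log2 fold change of -4.71. It entered the test only through shCtl (RPKM 2.81 and 2.72 in shCtl, 0.131 and 0.0662 in shM2-3), so this value is a description. The libraries do not keep strand, so reads of the 2 genes cannot be told apart over the 303 exonic bases they share, 4.15% of those of ITGB2. ITGAE, which pairs with ITGB7 to bind E-cadherin, had an RPKM of 2.09 and 2.22 in shCtl and 2.70 and 2.09 in shM2-3, and the groups overlapped (Benjamini-Hochberg adjusted p = 0.217 in the edgeR quasi-likelihood test). ITGB7 had at most 3 counts, and ITGB4 stayed below an RPKM of 0.5.

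Most genes of the adhesion plaque stayed within 2-fold. Of its 23 genes, 20 were tested, 12 were higher and 5 lower at the adjusted p, where 36.3% and 36.4% of all genes were. Of the 20, 1 was called higher and 2 lower, where 9.24% and 8.93% of all genes were. The kinases and docking proteins were all higher by less than 2-fold (5 of 5 tested at the adjusted p). BCAR1, a scaffold phosphorylated by SRC, had the largest log2 fold change of the class at 0.97, with an RPKM of 9.87 and 9.53 in shCtl and 18.0 and 18.2 in shM2-3. PXN (paxillin) had 0.69, PTK2 (FAK) 0.64 and SRC 0.62, and the paxillin relative TGFB1I1 had the smallest value at 0.21, which no longer passed without shCtl replicate 1 (0.17, Benjamini-Hochberg adjusted p = 0.115 in the edgeR quasi-likelihood test) or without shM2-3 replicate 2 (0.17, adjusted p = 0.15). The FAK relative PTK2B and the BCAR1 relative NEDD9 were below an RPKM of 0.5 in every library. PXN shares exonic bases with genes on the opposite strand, 23.7% of them in the largest overlap with a single gene. Of these genes, PXN-AS1 had at most 40 counts against 5162 or more for PXN.

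The linkers between integrins and actin divided. FERMT1 (chr20:6074845-6123214), a kindlin of epithelial cells, fell from an RPKM of 6.84 and 6.66 to 2.88 and 2.85 (log2 fold change -1.17, standard error 0.0834, Benjamini-Hochberg adjusted p = 2.58e-08 in the edgeR quasi-likelihood test). FERMT2, the kindlin of mesenchymal cells, had a log2 fold change of -0.11 that did not pass the test, and passed as lower under scaling by total counts (-0.15). The tensins TNS1 and TNS2, which bind the beta subunit tail, were higher with 0.80 and 0.86. Talin was dominated by TLN1, with an RPKM of 63.6 and 63.3 in shCtl and 68.4 and 67.2 in shM2-3. VCL, vinculin, which binds stretched talin, was lower with a log2 fold change of -0.39. TLN2 did not pass the test, and its groups overlapped.

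The ILK-PINCH-parvin complex, whose parts are known to stabilize each other as proteins, showed small changes in both directions. ILK had a log2 fold change of -0.25 and PARVB of -0.45, both lower at the adjusted p, while PARVA was higher with 0.30. LIMS1, which encodes a PINCH protein, had 0.0039, and its sign turned with the scaling. LIMS2 had at most 4 counts. ILK overlaps TAF10 and further genes on the opposite strand, and the largest overlap with a single gene covered 68.1% of its exonic bases. TAF10 had a log2 fold change of -0.04, and the small value of ILK is uncertain because of these overlaps.

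The zyxin family and TES moved in both directions, and TES had the highest value of the plaque. TES (chr7:116210506-116258783), testin, a LIM protein that binds zyxin, rose from 209 and 176 counts to 1184 and 1187. Its fold change in the edgeR fit was 5.59 (log2 fold change 2.48, standard error 0.106, Benjamini-Hochberg adjusted p = 1.15e-10 in the edgeR quasi-likelihood test). TRIP6 (chr7:100867387-100873454), a zyxin family member, fell from an RPKM of 63.5 and 64.9 to 30.1 and 29.0, a log2 fold change of -1.05. ZYX itself, which was the most abundant plaque gene in both groups, was higher with 0.42, and LPP with 0.22. The LPP value rested on shM2-3 replicate 1, since without it the value was 0.11, with a Benjamini-Hochberg adjusted p of 0.0881 in the edgeR quasi-likelihood test.

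**Figure D4:**
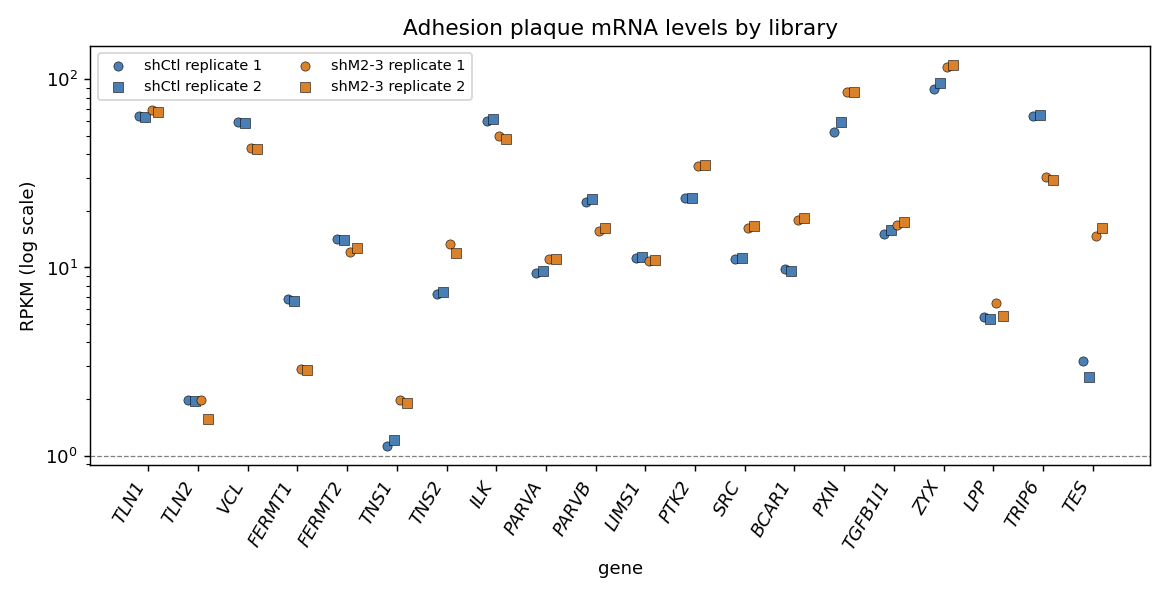
RPKM on a log scale (vertical axis) of the 20 plaque genes tested (horizontal axis) in each library, shCtl in blue and shM2-3 in orange, with circles for replicate 1 and squares for replicate 2. Blue and orange points are close for most genes, and TES is the gene with the widest upward gap and FERMT1 and TRIP6 those with the widest downward gaps.

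Because YAP1 acts through TEAD factors, which often bind beside AP-1, the promoter windows of the genes were searched for GGAATG (the core of the TEAD motif; reverse complement CATTCC) and for TGANTCA (AP-1), on both strands. The windows were those of RefSeq on GRCh38.p14, from 250 bases before to 50 bases after each annotated start. A window was found for 35 of the 49 genes, which are not the 35 genes tested. A gene can have several windows, and these 35 had 69. The TEAD core was present in 11 of the 69 windows (15.9%), near the 14.0% of all 35116 windows, and the AP-1 letters in 7 of the 69 (10.1%), against 7.71% of all windows. By gene, 9 of the 35 held a TEAD core and 5 the AP-1 letters, against 16.7% and 9.37% of all 27305 genes, which have fewer windows each. The stretches around the matches are shown for the genes called in either direction and for ITGB1, the common partner, with the matched letters in capitals on the strand of the gene.
ITGA5 TEAD core, chr12:54419331-54419360, minus strand: tccagggacccaGGAATGcccccccgccag
ITGA5 AP-1, chr12:54419254-54419284, minus strand: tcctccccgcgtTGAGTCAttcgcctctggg
TRIP6 TEAD core, chr7:100867306-100867335, plus strand: gaccctcccccaGGAATGtggtgacgtcat
TRIP6 AP-1, chr7:100867251-100867281, plus strand: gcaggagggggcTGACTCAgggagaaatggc
TES TEAD core, chr7:116222707-116222736, plus strand: aagaccaaattaGGAATGgttgccatgatc
TES TEAD core, chr7:116222827-116222856, plus strand: tgtttatgagcgCATTCCattacagtgtct
ITGA10 TEAD core, chr1:145910124-145910153, minus strand: catcactcctccCATTCCttccaactttat
ITGB1 TEAD core, chr10:32958395-32958424, minus strand: cgcggcgggagaGGAATGcgtttccggagg

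The genes with a TEAD core moved in both directions: ITGA5, ITGA10 and TES were called higher, TRIP6 was called lower, and ITGB1, LPP, PXN, TNS1 and VCL were not called. Both motifs were present in 1 window of ITGA5, TRIP6 and LPP each, of which ITGA5 was called higher, TRIP6 lower and LPP in neither direction. In ITGA5 the TEAD core began at position -82 and the AP-1 letters at -6 relative to the start, and in TRIP6 at -69 and -124, with no shared bases. The matches of TES and ITGB1 lie within the span of the gene, beside an annotated start inside it. Genes without a window were not searched, so a gene not named here did not necessarily lack a match. A match of letters is a description of the window and not of binding.

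Other adhesion genes and the matrix ligands gave the surroundings of these values. Of 51 further adhesion genes, 42 were tested, 2 were called higher (KANK2 and TNS3) and 5 lower (AJUBA, ITGBL1, CAV1, SORBS2 and FLNC), and their median was 0.01. SORBS2 entered the test only through shCtl (RPKM 1.19 and 1.21 in shCtl, 0.537 and 0.494 in shM2-3), so its call and these counts are descriptions. Of all genes, 9.24% were called higher and 8.93% lower. The lowest were AJUBA, a LIM protein related to zyxin, at -3.13, ITGBL1, a secreted protein similar to beta subunits, at -1.37, and CAV1, caveolin, at -1.22. The highest were KANK2, a talin-binding protein, at 1.76, the tensin TNS3 at 1.26 and the paxillin relative LPXN at 0.94, which was under the fold change limit.

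Of 31 integrin ligands, 21 were tested, 13 were called higher and 0 lower in the edgeR test, where 9.24% and 8.93% of all genes were, 3 were lower at the adjusted p alone, and the median was 1.32. FN1, the ligand of ITGA5, had the highest value at 4.22, and its RPKM went from 178 ± 0.0523 to 3176 ± 43.1 (SD, n = 2 each). LAMA5, a laminin chain, followed at 2.92 (RPKM 6.64 and 7.72 against 52.8 and 51.3), and COL6A1, a collagen chain, at 2.09. ICAM3, a ligand of leukocyte integrins, was the lowest at -0.70, followed by LAMB3 at -0.34 and VCAM1, a ligand of ITGA4, at -0.30.

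**Figure D5:**
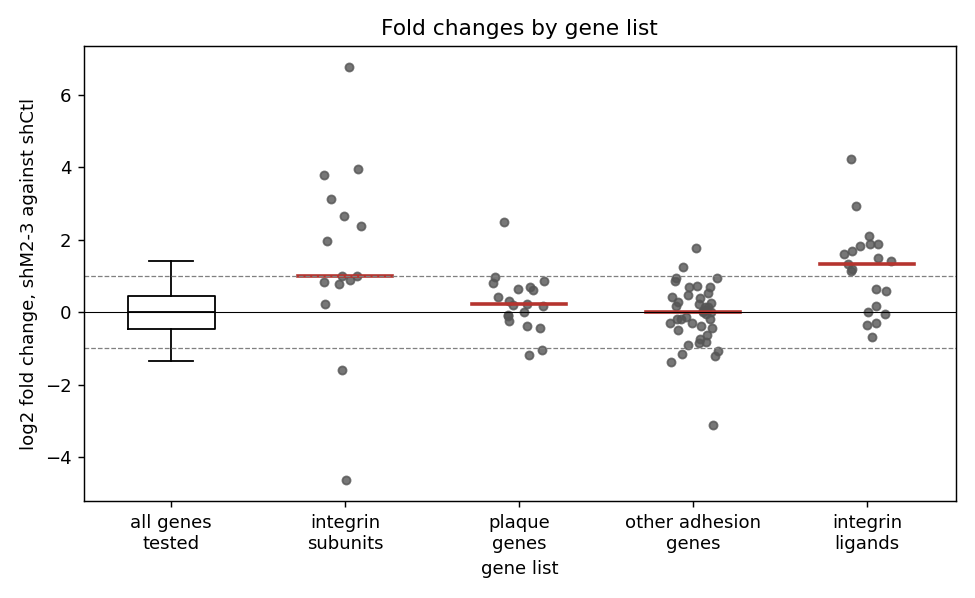
Log2 fold changes, shM2-3 against shCtl (vertical axis), of the integrin subunits, plaque genes, other adhesion genes and integrin ligands tested (points, with the median as a red line), beside a box for all 12157 genes tested (box: quartiles, center line: median, whiskers: 5th and 95th percentiles). The medians are 1.00, 0.21, 0.01 and 1.32, and the whiskers of all genes run from -1.36 to 1.41.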

How the data were processed

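According to the submitters' processing notes and the methods of the study, the authors aligned reads of non-strand-specific libraries to hg38 with HISAT2 2.0.4, removed ambiguous and low-quality alignments, and quantified RefSeq transcripts in Partek 7.18. The deposited values are estimated counts, which need not be whole and are not normalized, and RPKM. After rounding, the counts of 12157 genes were tested in edgeR 4.0.16 (R 4.3.3) with TMM factors, glmQLFit and glmQLFTest and without a block. Genes counted as called at a fold change of at least 2 with a p of at most 0.05 after Benjamini-Hochberg adjustment over all genes tested. The standard error was taken as the log2 fold change over the square root of F. The scripts were tested on simulated data. Alternatives were total counts, RLE factors, DESeq2 1.42.0, a likelihood ratio test, other filters, a fold change limit of 1.5, limma 3.58.1 on log2 RPKM with a pseudocount of 0.1 or 1, a block for the replicate number, and leaving out single libraries.

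The genes, lists and tests were chosen with earlier results of these data known, and the motifs after values had been seen. Called genes were given by library, other genes of a class by the lowest and highest value, and of the further lists the 3 lowest and 3 highest genes were named. PELO, ITGB2-AS1, PXN-AS1 and TAF10 were named for exon overlaps in GENCODE version 44 on hg38, which also gave gene coordinates, and SORBS2, FLNC and single markers after values had been seen. Replicates were distinct libraries, with differences 3.51 (shCtl) and 4.09 (shM2-3) times what sampling gives as a chi-square per degree of freedom. Each SD rests on 2 libraries, and genes with few counts also carry counting error.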

Additional observations from a re-analysis of the deposited data

How the results depend on the processing

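All 12 called genes (8 higher, 4 lower) kept their direction and their call in every alternative run at a fold change limit of 2, the replicate block and each left-out library included. With a limit of 1.5, 19 of the integrin and plaque genes were called higher (12 integrin subunits and 7 plaque genes), as were 8 of the other adhesion genes, while 10 of the other adhesion genes and 1 integrin ligand were called lower. ITGA4 passed the limit of 2 with RLE factors and with DESeq2 (1.00 each), and without shCtl replicate 1 (1.03) or shM2-3 replicate 2 (1.02). ITGB3 passed it without shCtl replicate 2 (1.03). With no filter and with filterByExpr, 9 of the integrin and plaque genes were called higher, 8 of them integrin subunits. ITGA4 (0.969 and 0.983) and ITGB3 (0.957 and 0.971) stayed under the limit in these 2 settings. The added subunit was thus outside the genes tested above. By adjusted p alone, between 22 and 25 of the integrin and plaque genes were higher and 7 or 8 lower. TGFB1I1 missed that limit with DESeq2 (adjusted p 0.0953), total counts, no filter, both log2 RPKM scales and either of 2 libraries left out, LPP missed it on both log2 RPKM scales (limma, adjusted p 0.200 each) and without shM2-3 replicate 1, and FERMT2 passed it as lower with total counts and on both log2 RPKM scales. Over all genes tested, the counts called lower and higher were 1086 and 1123, against 2302 and 2296 at the limit of 1.5 and 724 and 596 with limma on log2(RPKM + 1). No scaling moved the median of all genes tested by more than 0.1 on the log2 scale.

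Both genes that changed sign were among those that did not pass the test. TLN2 was 0.0718 without shM2-3 replicate 2 and ranged from -0.251 to 0.0718 with libraries left out. LIMS1 was -0.0315 with total counts, -0.0271 with no filter, -0.0131 with filterByExpr, -0.0616 on log2(RPKM + 0.1) and -0.0570 on log2(RPKM + 1), and ranged from -0.0048 to 0.0153 with libraries left out, and the cause was not tested.

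Without division by length, the share of alpha subunit counts was 4.03% and 23.6% for collagen receptors (shCtl and shM2-3), 75.9% and 43.9% for laminin receptors, 5.50% and 4.24% for ITGA4 with ITGA9, and 0.507% and 0.212% for leukocyte alpha subunits, and 28.1% for RGD receptors in shM2-3. These moves follow from the longer or shorter transcripts by construction.

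With the replicate block, 8 of the integrin and plaque genes were called higher and 4 lower, as without it. Replicate numbers are shared by name only: the deviations of same-numbered libraries correlated at -0.0287 over 2 pairs.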
